A study of Mus musculus with 10 samples.

Results

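Potassium channels set the resting potential of a cell and bring it back towards rest after an action potential. The pore-forming proteins fall into voltage-gated, calcium- or sodium-activated, inward-rectifying and tandem-pore families, and auxiliary subunits alter their gating and their transport to the membrane. In motor neurons these channels are known for shaping firing, and their expression changes as the cells mature. The genes described here are the protein-coding genes of the mouse annotation GENCODE M21 whose symbol starts with Kcn, pore subunits and auxiliary subunits alike. The rule used the symbol and no measured value, and it gave 94 genes out of 48972 genes with counts.

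The libraries came from spinal cord cells of mouse embryos at e10.5, sorted for yellow fluorescent protein (YFP). All 10 samples carried Olig2-Cre+/- and Rosa26R-YFP+/-, so that YFP marked cells in which the Cre recombinase, driven from the Olig2 gene of motor neuron progenitors, had acted. The 5 control samples were Oc1+/Flox and Oc2+/Flox, and so had 1 floxed copy of each Onecut transcription factor gene. The 5 conditional double knockout (cdKO) samples were Oc1-/Flox and Oc2-/Flox, which leaves no intact copy after recombination. The reporter also marks V3 interneurons, according to the study, so the sorted cells were not only motor neurons. Nothing in the labels says whether a sample was 1 embryo or a pool, so p-values measure the spread between these samples.

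Depth was 63932395 to 107709534 counts per control sample and 72315782 to 84249157 per cdKO sample. Of the floxed genes, Onecut1 had 2.25 to 9.94 CPM (counts scaled to a common library total) in control and 1.03 to 4.29 in cdKO samples, a log2 difference of -1.11 (standard error 0.46, adjusted p = 0.938 by edgeR). Onecut2 had 0.988 to 9.39 and 1.35 to 19.2 CPM, so the totals of both genes overlapped between the groups. The third family member, Onecut3, which was not floxed, had 0.330 to 0.682 CPM in control and 0 to 0.0381 in cdKO samples, without overlap (adjusted p = 0.111 by edgeR). The study notes that truncated Oc2 transcripts, which make no functional peptide, are still detected in tissue without Oc2. Its own comparison of the sorted cells lists Onecut1 and Onecut3 as lower in cdKO, with small adjusted p-values. By immunostaining, it also reports that motor neurons of cdKO embryos lost the proteins of all Onecut genes. The extent of the Onecut1 deletion was not given in the sources used here. All 7 motor neuron markers, among them Isl1 and Chat, passed 3 counts in every sample. Their summed CPM was 531 to 688 in control samples. It was 512 to 788 in cdKO replicates 1 to 4, but 305 in cdKO replicate 5. Control replicate 5 had the highest Isl1 of the control samples (347 CPM, against 135 to 253 in the others). The other markers, Isl2, Mnx1, Lhx3, Lhx4, Chat and Slc18a3, were each at their lowest control value there. The 6 markers of ventral progenitors summed to 149 to 323, with the highest value in control replicate 5. The summed CPM of the 8 markers of postmitotic neurons was 990 in control replicate 5, against 2200 to 5005 in the other control samples and 1705 to 5105 in cdKO samples. Markers of other cells were also read, as summed CPM over the 10 samples: 18.5 to 99.7 for 3 markers of V3 interneurons (99.7 in control replicate 5, at most 38.7 elsewhere), 8.27 to 46.6 for 5 of neural crest and sensory cells, 6.90 to 24.5 for 8 of mesenchyme, 2.07 to 7.36 for 6 of muscle, 3.16 to 6.95 for 7 of macrophages, and 1.61 to 3.38 for 6 of endothelium. The V3 markers did not move together in control replicate 5. There, Nkx2-9 (84.5 CPM) and Nkx2-2 (15.1) were at their highest of the 10 samples, and Sim1 (0.148) was at its lowest. The 8 erythroid markers summed to 1.27 to 18.8 in control samples and 2.66 to 64.0 in cdKO samples, with 54.0 in cdKO replicate 3 and 64.0 in cdKO replicate 5. Replicate 5 of both groups stood apart in the position of the reads along genes. The median share of a gene's counts on its bins within 1000 exon bases of the 3′ end was 24.6% in control replicate 5 and 43.1% in cdKO replicate 5, beside 17.0% to 18.9% in the other 8 libraries (8170 genes). Results that rest on these libraries are given with and without them.

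The starts of 3 of the highest genes and of 1 undetected gene are printed first. For Kcnh2 and Kcnn1, reads on the first exons bear on which start was in use. Kcne1l has a single exon bin and Kcna10 has no counts, so reads cannot show this for them. Each stretch runs from 250 bases before a RefSeq start to 50 bases after it, 5′ to 3′ on the gene's strand (build GRCm38.p6), and capitals mark CG dinucleotides. Kcnh2 (chr5:24329542-24329841, minus strand) has 1 start in this table, that of its short transcript. Kcne1l (chrX:142306149-142306448, minus strand) also has 1. Kcnn1 has an upstream start (chr8:70863209-70863508, minus strand) and a downstream one (chr8:70856959-70857258, minus strand). Kcna10 (chr3:107182893-107183192, plus strand), a voltage-gated channel gene with 0 counts in all 10 samples, is shown for contrast.
Kcnh2: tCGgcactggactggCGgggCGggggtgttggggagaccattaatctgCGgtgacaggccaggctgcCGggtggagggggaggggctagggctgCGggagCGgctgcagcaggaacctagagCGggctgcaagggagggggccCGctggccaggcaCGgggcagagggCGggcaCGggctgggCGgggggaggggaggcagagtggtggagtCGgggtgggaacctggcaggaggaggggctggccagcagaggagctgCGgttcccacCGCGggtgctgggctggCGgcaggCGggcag
Kcne1l: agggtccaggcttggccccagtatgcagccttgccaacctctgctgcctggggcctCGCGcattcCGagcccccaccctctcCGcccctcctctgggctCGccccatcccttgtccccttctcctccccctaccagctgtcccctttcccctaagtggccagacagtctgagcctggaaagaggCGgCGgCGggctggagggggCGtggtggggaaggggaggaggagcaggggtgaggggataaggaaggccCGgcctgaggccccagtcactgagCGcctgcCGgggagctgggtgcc
Kcnn1 upstream start: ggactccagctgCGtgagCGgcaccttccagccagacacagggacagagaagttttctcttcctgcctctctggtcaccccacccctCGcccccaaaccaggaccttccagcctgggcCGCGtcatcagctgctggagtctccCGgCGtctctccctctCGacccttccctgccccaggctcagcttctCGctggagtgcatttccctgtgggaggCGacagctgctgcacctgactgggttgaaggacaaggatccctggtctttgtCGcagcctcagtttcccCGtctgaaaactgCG
Kcnn1 downstream start: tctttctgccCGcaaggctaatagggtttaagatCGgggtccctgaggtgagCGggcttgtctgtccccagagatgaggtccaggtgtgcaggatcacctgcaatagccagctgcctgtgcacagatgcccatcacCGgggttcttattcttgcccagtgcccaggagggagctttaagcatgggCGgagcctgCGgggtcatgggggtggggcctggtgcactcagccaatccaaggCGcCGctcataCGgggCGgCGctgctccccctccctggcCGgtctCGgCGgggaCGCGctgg
Kcna10: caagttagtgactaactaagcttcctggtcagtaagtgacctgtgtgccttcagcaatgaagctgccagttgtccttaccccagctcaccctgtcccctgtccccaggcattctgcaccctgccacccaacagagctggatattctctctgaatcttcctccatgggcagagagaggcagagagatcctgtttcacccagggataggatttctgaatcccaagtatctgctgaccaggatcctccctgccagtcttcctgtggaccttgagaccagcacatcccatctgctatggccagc

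The stretches of Kcnh2, Kcne1l and the upstream start of Kcnn1 held 19, 12 and 13 CG dinucleotides, and that of Kcna10 held 0. The downstream start of Kcnn1, whose first exon held at most 3 counts in any library, held 16. Among the members with a stretch, Kcna10 had the fewest and Kcng3, also undetected, had the most, with 49. Over the 69 members with a stretch in the table, 36 (52.2%) held 10 or more CG dinucleotides, as did 43.5% of all 32851 stretches. The members undetected in these cells had 4 of 11 such stretches, and those of the highest level class 4 of 6. The letters ATTGAT, a core of the known Onecut binding motif, were searched on both strands and were found in 5 of the 69 stretches (7.25%), against 7.54% of all stretches. Those 5 belong to Kcnip1, Kcnip4, Kcnj1, Kcnk18 and Kcnk2. One stretch per gene was used, and it need not be at the start in use: the first exons at the starts used for Kcnip1 and Kcnip3 had 0 counts in all 10 samples. That at the start used for Kcnip2 had at most 19 counts in any library, and the start used for Kcnk10 met no exon bin. Only starts of the highest genes were looked at in this way.

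Few potassium channel genes were above a low level in these cells. Levels of different genes were compared per length, as CPM per kilobase of exon after scaling by the trimmed mean of M values (TMM). By the median over the 5 control samples, 6 of the 94 genes reached 1 (class expressed), 28 lay from 0.1 to 1 (low) and 46 lay under 0.1 (trace). The other 14 had at most 3 counts in each of the 10 samples (undetected). Over all 21702 protein-coding genes, 40.6% were in the expressed class, against 6.38% of the Kcn genes, and 24.5% were undetected, against 14.9%. With 0.5 in place of 1 as the lower limit of the expressed class, 11 Kcn genes were in it. Between 54 and 71 members passed 3 counts in a library, and both libraries with 54 were replicate 5.

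**Figure D1:**
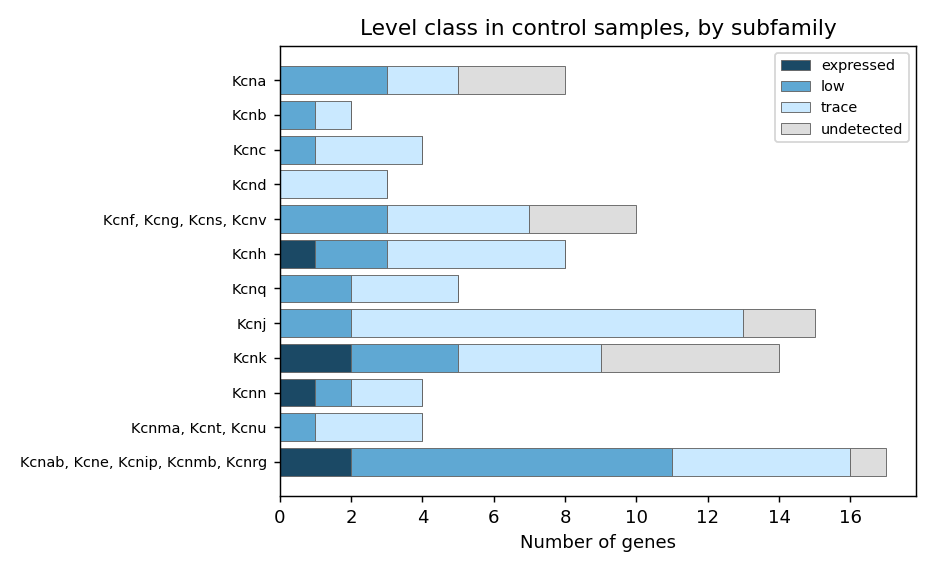
Number of Kcn genes in each level class (expressed, low, trace, undetected; median of the 5 control samples), by subfamily. The 6 genes of the expressed class are spread over the Kcnh, Kcnk and Kcnn subfamilies and the auxiliary subunits, and none of the 17 genes of Kcna to Kcnd is among them.

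Kcnh2 encodes an ether-a-go-go related channel known for the repolarisation of the heart, and it was the highest member. Its level was 7.83, 12.7, 8.30, 10.2 and 5.14 CPM per kilobase in control replicates 1 to 5 and 12.8, 8.0, 9.15, 8.30 and 6.0 in cdKO replicates 1 to 5. Replicate 5 was the lowest of its group both times, and the groups overlapped over nearly their whole range. In the control median Kcnh2 lay above 83.3% of protein-coding genes. The other members of its family were far lower: Kcnh4 and Kcnh8 were at 0.383 and 0.220, and Kcnh1, Kcnh3, Kcnh5, Kcnh6 and Kcnh7 were in the trace class.

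Kcne1l, also called Kcne5, encodes a small auxiliary subunit of voltage-gated channels. Its level was 5.27, 7.53, 5.85, 5.70 and 2.93 CPM per kilobase in control and 7.08, 4.58, 5.95, 4.88 and 5.82 in cdKO samples. The other 4 Kcne genes, Kcne1, Kcne2, Kcne3 and Kcne4, had control medians from 0 to 0.0715.

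Kcnn1 encodes a small-conductance channel opened by calcium. Its level was 5.18, 7.61, 5.04, 7.13 and 0.625 CPM per kilobase in control and 10.9, 2.87, 6.31, 5.71 and 1.81 in cdKO samples. Both replicate 5 libraries were lowest in their group, and in control replicate 5 the neuronal markers Nefl (87.3 CPM, against 442 to 1560 in the other control samples) and Tubb3 (140 against 449 to 1046) were lowest too. Stmn2, Nefm and Dcx of the same marker list were also lowest there. Elavl3 was instead the highest of the control samples (40.4 CPM, against 5.83 to 23.6 in the others). Elavl4 (485 CPM) and Snap25 (42.1) lay within the range of the other control samples. In cdKO replicate 5, Nefl (703 CPM) and Tubb3 (797) lay within the range of the other cdKO samples (342 to 1396 and 432 to 1551). The summed postmitotic neuron markers of cdKO replicate 5 were at 5105 CPM, the highest of the 10 samples. Stmn2 alone made up 2545 of that sum, against at most 828 in the other cdKO samples. The counts of Kcnn1 in that library lay nearer its 3′ end: the bin of 748 bases next to the last one held 410 counts, against 239 to 806 in the other cdKO samples, while the first exon at the upstream start held 33, against 115 to 432. In control replicate 5 that bin held 108 and the first exon 10, against 427 to 769 and 195 to 295 in the other control samples. In a bulk sample fewer cells of a type and less RNA per cell cannot be told apart. The related Kcnn2 had a control median of 0.281, Kcnn3 0.0337 and Kcnn4 0.00827.

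The expressed class also held a pair of tandem-pore channels, which carry background current, and 1 calcium-binding subunit. Kcnk10 was at 2.98, 2.02, 1.58, 2.19 and 0.686 CPM per kilobase in control and 4.26, 1.81, 2.45, 1.94 and 1.82 in cdKO samples. Kcnk5 was at 1.25, 2.26, 2.02, 1.86 and 0.475 in control and 2.22, 2.16, 1.49, 2.27 and 0.431 in cdKO samples. Replicate 5 was the lowest of both groups for Kcnk5, and of the control group for Kcnk10. Kcnip3, which encodes a calcium sensor that binds voltage-gated channels, was at 1.34, 1.20, 0.880, 1.05 and 0.918 in control and 1.78, 1.28, 1.0, 1.03 and 0.762 in cdKO samples.

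In the order of control medians, Kcnh2 (8.30), Kcne1l (5.70) and Kcnn1 (5.18) overlapped in their ranges over the 5 control samples. Kcnk10 (2.02), Kcnk5 (1.86) and Kcnip3 (1.05) followed and overlapped among themselves and with Kcnn1. Without replicate 5, the lowest control value of Kcnn1 (5.04) lay above the highest of Kcnk10 (2.98). The first 3 genes together held 46.8% to 60.5% of the summed level of all members in each control sample and 44.1% to 54.0% in each cdKO sample. The summed level was 17.3 in control replicate 5 and 30.9 in cdKO replicate 5, beside 32.2 to 46.0 in the other control and 30.3 to 56.9 in the other cdKO samples.

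**Figure D2:**
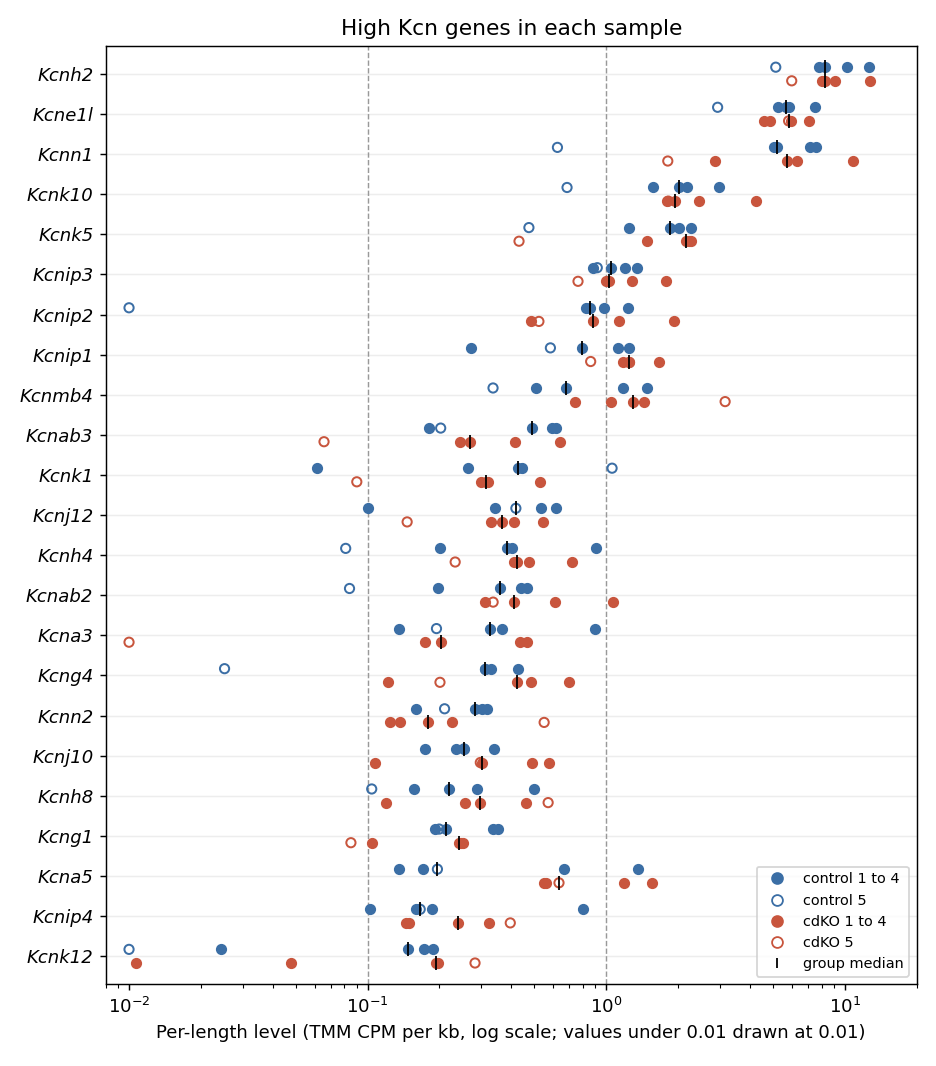
Per-length level (TMM CPM per kilobase, log axis, values under 0.01 drawn at 0.01) of 23 of the 25 Kcn genes with the highest control median, with 1 point per sample and open points for replicate 5. The medians of Kcnh2, Kcne1l and Kcnn1 lie above those of the rest, and the control and cdKO points of every gene overlap.

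The voltage-gated families Kcna, Kcnb, Kcnc and Kcnd, which hold the delayed rectifiers and fast inactivating channels of mature motor neurons, had 5 of 17 genes above trace. In the Kcna family these were Kcna3 (control median 0.327), Kcna5 (0.196) and Kcna6 (0.125), but 63.8% of the counts of Kcna6 lay on bins that also hold exons of the lncRNA gene Gm26673. Kcna1 and Kcna2, the axonal channels of mature neurons, had at most 15 and 9 counts in any library. Kcna4, Kcna7 and Kcna10 were undetected. Kcnb2 (0.142) and Kcnc1 (0.102) were in the low class. Kcnd1 was at 0.0981, Kcnd3 at 0.0590 and Kcnd2 at 0.0333, and Kcnc2 and Kcnc4 had control medians of 0.

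Of the 10 electrically silent subunits, which alter Kcnb channels and form no channel alone, Kcng4 (0.312), Kcng1 (0.214) and Kcnv1 (0.114) were in the low class. Kcng2, Kcnf1, Kcns1 and Kcns3 were in the trace class and Kcng3, Kcns2 and Kcnv2 were undetected. The Kcnq family carries the M-current that restrains repetitive firing. Of this family, Kcnq1, Kcnq3 and Kcnq5 were in the trace class, and Kcnq3 had at most 12 counts in any library.

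Inward rectifiers, which hold the membrane near rest, were the largest family with 15 genes and had 2 above trace. These were Kcnj12 (control median 0.418) and Kcnj10 (0.253), the latter known from glia. Among the 11 trace genes was Kcnj13, all of whose counts lay on bins shared with Gigyf2. The G protein-coupled channel genes Kcnj3 and Kcnj6 had at most 6 and 5 counts in any library, and Kcnj1 and Kcnj15 were undetected. Of the 14 tandem-pore genes, Kcnk1 (0.427), Kcnk12 (0.148) and Kcnk2 (0.137) were in the low class beside Kcnk10 and Kcnk5, and 48.2% of the counts of Kcnk2 lay on bins shared with A430027H14Rik. Kcnk3, a channel of adult motor neurons, was at 0.0298, and Kcnk9 was undetected with at most 2 counts in a library, as were Kcnk7, Kcnk15, Kcnk16 and Kcnk18. Kcnk16 lies 79567 bases from Kcnk5 on chromosome 14, so that neighbours lay at opposite ends of the level scale. Of the large-conductance family, Kcnma1 was at 0.105, and Kcnu1, Kcnt2 and Kcnt1 were in the trace class (0.0633, 0.0304 and 0.00657).

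Of the auxiliary subunits, 11 of 17 were above trace, against 23 of the 77 pore-forming and silent subunits. All 4 Kcnip genes, whose products bind Kcnd channels, were in the low or expressed class. Kcnip2 (0.854) had a single low library, control replicate 5 at 0.00394, while the other control samples had 0.822 to 1.24. Kcnip1 was at 0.794 and Kcnip4 at 0.166, and none of the 3 Kcnd pore genes reached 0.1. All 3 Kcnab genes, whose products bind Kcna channels, were in the low class, with Kcnab3 at 0.490, Kcnab2 at 0.359 and Kcnab1 at 0.140. Kcnmb4, a subunit of the Kcnma1 channel, was at 0.677, although 62.4% of its counts lay on bins shared with its antisense genes, which the unstranded counts cannot separate. Kcnmb2 (0.145) and Kcnrg (0.129) were low, Kcne1, Kcne3, Kcne4, Kcnmb1 and Kcnmb3 were in the trace class, and Kcne2 was undetected.

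Exon bins that differ between transcripts or starts were read for Kcnh2, Kcnn1, Kcnip3 and Kcnip1. Kcnh2 has a long transcript and a short one that starts at the stretch printed above and replaces the first 5 exons of the long transcript by an exon of its own (chr5:24329165-24329591). In control replicates 1 to 4 that exon held 193, 400, 167 and 201 counts, and the 5 exons of the long transcript alone held 169, 357, 182 and 207. In cdKO replicates 1 to 4 the exon of the short transcript held 283, 152, 225 and 184 counts and the long exons 241, 107, 170 and 144. Per length, the short exon was at 3.30 to 6.66 CPM per kilobase in those control samples and 3.14 to 6.24 in those cdKO samples, and the long exons at 0.771 to 1.56 and 0.579 to 1.39. In replicate 5 the short exon had 5 counts in control and 2 in cdKO, too few to compare.

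The ratio of the short exon to the long exons per length was 4.36, 4.28, 3.5 and 3.71 in control replicates 1 to 4 and 4.49, 5.43, 5.06 and 4.88 in cdKO replicates 1 to 4. The mean over control replicates was 3.96 ± 0.422 (SD, n = 4) and that over cdKO replicates was 4.96 ± 0.391 (SD, n = 4). The groups did not overlap, but the highest control value (4.36) lay close to the lowest cdKO value (4.49). The counting intervals of single samples overlapped between the groups. As a share of the counts on both parts, the short exon had 53.3% in control replicate 1 (95% Wilson interval 48.2% to 58.4%) and 54.0% in cdKO replicate 1 (49.7% to 58.2%). This ratio was chosen after its counts were seen and it leaves out both replicate 5 libraries, so no p is given. How often such ratios separate the groups in other genes was not tested. Counts fell along the long exons: in control replicate 1, the nearest to the 3′ end (212 bases) held 49 and the furthest (397 bases) 7. In cdKO replicate 1 these held 55 and 7. Exons of both transcripts were at 12.345 to 19.763 CPM per kilobase in these control samples, above either part. Whether the ratio reflects transcript use was not tested. The mean distance of a gene's counts from its 3′ end, taken as the median over 8170 genes, was 2549 to 2606 bases in these control samples and 2555 to 2600 in these cdKO samples.

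**Figure D3:**
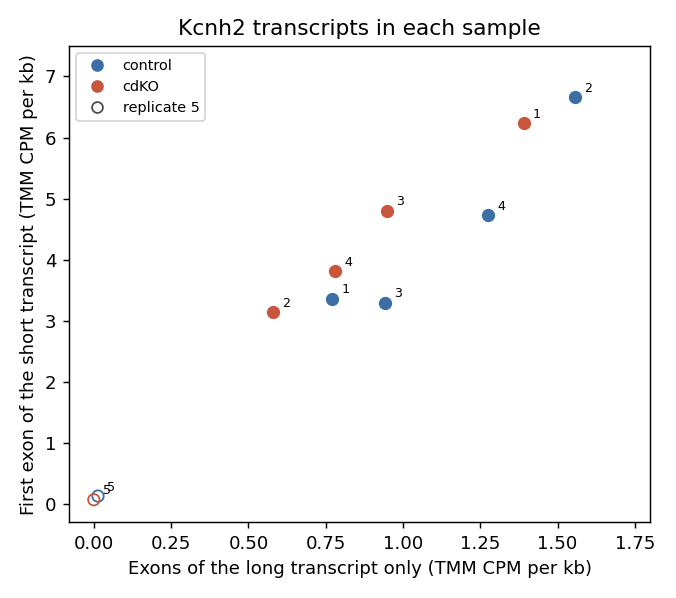
Level of the first exon of the short Kcnh2 transcript (vertical, TMM CPM per kilobase) against that of the 5 exons found only in the long transcript (horizontal), 1 point per sample with its replicate number. The cdKO points lie above the control points at a similar horizontal position, and both replicate 5 libraries lie near 0.

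Along the rest of Kcnh2 the replicate 5 libraries had few counts on the 5′ part of the gene and a usual level on the 3′ part. GENCODE also lists a non-coding transcript inside the gene, whose 5′ end is at base 24322254 of chromosome 5. The 6 bins from the 3′ end up to that base held 2691 counts in control replicate 5 and 2443 in cdKO replicate 5, beside 3037 to 5572 in the other 8 libraries. The 17 bins beyond it held 188 and 76 counts, against 2414 to 5385. Per length, the 3′ segment was at 18.7 and 22.6 CPM per kilobase in the replicate 5 libraries, within the 15.8 to 25.1 of the others, and the 5′ segment was at 0.452 and 0.244 against 4.67 to 9.22. The gene total of Kcnh2 in those libraries rests mostly on its 3′ segment.

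**Figure D4:**
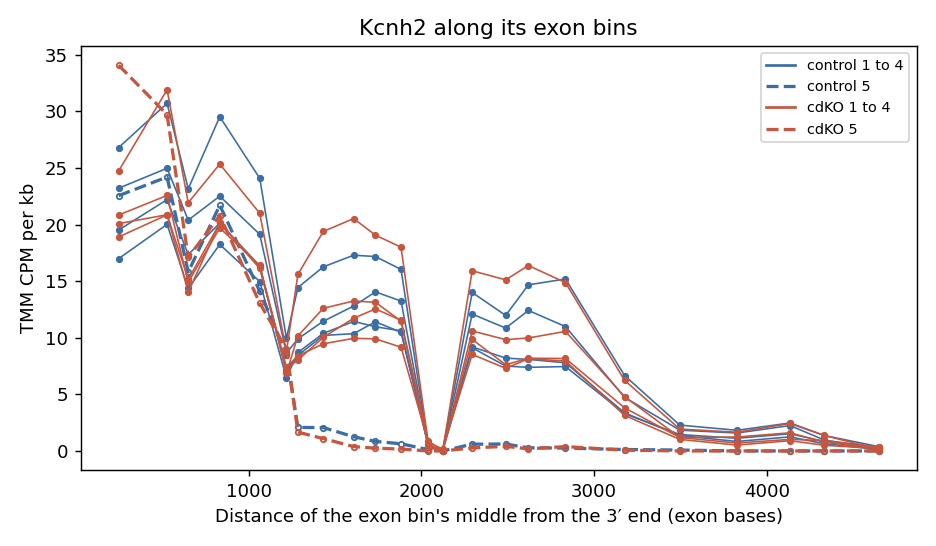
TMM CPM per kilobase (vertical) of each Kcnh2 exon bin against the distance of its middle from the 3′ end in exon bases (horizontal), 1 line per sample, dashed for replicate 5. Nearer the end than the 1235 bases of the 3′ segment all 10 lines run together, and further away both dashed lines drop towards 0.

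For Kcnn1, the first exon at the upstream start held 195, 295, 217, 275 and 10 counts in control and 432, 115, 280, 218 and 33 in cdKO samples. The first exon at the downstream start held at most 3 counts in any library. For Kcnip3, 1 of 3 RefSeq starts carried most of the counts on first exons, with 10 to 26 per library, against 0 to 7 and 0 at the others. For Kcnip1, the exon at the start near base 33843686 of chromosome 11 held 21 to 147 counts and the exon at the start furthest upstream held 0 in all libraries.

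The comparison of cdKO with control samples asks whether loss of the Onecut factors changed the channel genes these cells express. No Kcn gene was called. Of the 94 members, 60 passed the filter on low counts, and of the 34 that did not, 20 were in the trace class and 14 undetected. In edgeR's quasi-likelihood fit of 17835 genes, adjusted by the method of Benjamini and Hochberg, 0 of the 60 had an adjusted p under 0.05 (smallest 0.938), and so had 0 of all genes tested (0%, smallest adjusted p 0.0816). At an unadjusted p under 0.05, 0 members passed in either direction. Of all genes tested, 743 (4.17%) passed with a higher level in cdKO and 145 (0.813%) with a lower one. By the exact two-sided permutation test of the mean log2(CPM + 0.5), 0 members were under 0.05 in either direction, against 1.48% higher and 1.13% lower over all genes. In no member did the groups not overlap, against 0.179% of all genes with every cdKO sample higher and 0.224% with every cdKO sample lower. DESeq2, run as an alternative on 86 members, called 0 of them at an adjusted p under 0.05 and 19 genes of all.

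Over the 60 members the log2 fold changes, cdKO over control, ran from -0.79 (Kcnt2) to 1.93 (Kcnn4) with a median of 0.19, beside a median of -0.02 over all genes tested. They were above 0 in 39 of the 60 (65.0%), against 48.2% of all genes. Without replicate 5 of both groups the median was 0.05 over 61 members, 36 of them above 0, beside 0.00 over all genes. The standard errors ran from 0.30 to 1.07 with a median of 0.56, so only for Kcnh2, Kcne1l and Kcnip3 did the 95% interval lie within 1 log2 unit of 0.

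**Figure D5:**
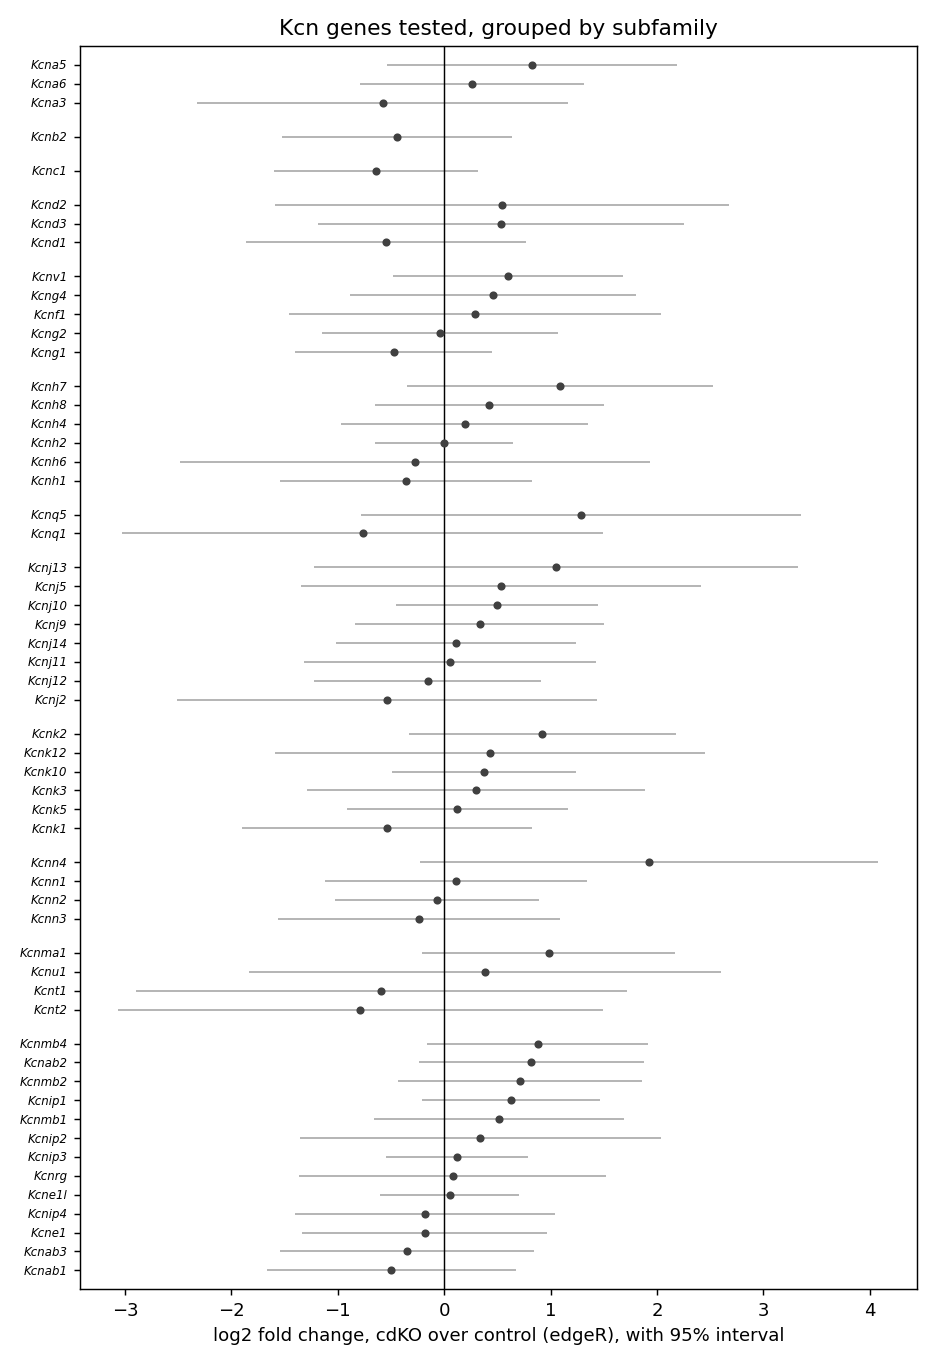
Log2 fold change, cdKO over control, from edgeR (points) with 95% intervals (lines) for 56 of the 60 Kcn genes tested, grouped from Kcna at the top to the auxiliary subunits at the bottom. Every interval drawn includes 0, and the narrowest are those of Kcnh2, Kcne1l and Kcnip3.

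For the highest genes the difference was small beside its error. The log2 fold change was 0.00 for Kcnh2 (95% interval -0.65 to 0.65), 0.05 for Kcne1l (-0.60 to 0.71) and 0.12 for Kcnip3 (-0.55 to 0.79). It was 0.11 for Kcnn1 (-1.12 to 1.34), 0.13 for Kcnk5 (-0.91 to 1.16) and 0.38 for Kcnk10 (-0.49 to 1.24). The adjusted p of these 6 genes in edgeR's test were all at least 0.997.

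Channel genes known from motor neurons were named whatever their values, and 14 of the 20 were tested, of which 11 are given. Among the voltage-gated genes, the log2 fold change was 0.27 (standard error 0.49) for Kcna6, -0.64 (0.45) for Kcnc1, 0.54 (0.99) for Kcnd2 and 0.54 (0.80) for Kcnd3. Kcnc1, which supports fast firing in mature neurons, was at 0.193, 0.0801, 0.102, 0.228 and 0.0749 CPM per kilobase in control and 0.131, 0.0871, 0.0808, 0.0851 and 0.0499 in cdKO samples, and the groups overlapped. For Kcnd2 and Kcnd3 the direction rested on replicate 5, and without it in both groups the log2 fold changes were -0.40 and -1.04.

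For other genes of that list the log2 fold change was -0.07 (standard error 0.45) for Kcnn2, -0.24 (0.62) for Kcnn3, 0.30 (0.74) for Kcnk3, 0.98 (0.55) for Kcnma1, -0.59 (1.07) for Kcnt1 and -0.79 (1.06) for Kcnt2. Without replicate 5 of both groups Kcnk3 and Kcnn3 turned, to -0.30 and 0.14, and Kcnn2 was at -0.68. Kcna1, Kcna2, Kcnj3, Kcnj6, Kcnk9 and Kcnq3 did not pass the filter on low counts. In the fit without that filter, which took in 88 members, 0 were called (smallest adjusted p by edgeR 0.700), and Kcnj3, with 0 counts in every control sample and 0, 0, 0, 5 and 6 in cdKO samples, was at an unadjusted p under 0.05. Leaving out 1 sample moved Kcnt1 between -1.71 (without cdKO replicate 1) and -0.05 (without control replicate 1), and Kcnt2 between -2.30 (without cdKO replicate 4) and -0.04 (without control replicate 4).

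The members with the smallest unadjusted p were named after their values were seen. Kcnn4, an intermediate-conductance calcium-activated channel, had 11, 17, 6, 0 and 0 counts in control and 1, 21, 11, 34 and 29 in cdKO samples. Its log2 fold change was 1.93 (standard error 1.0, unadjusted p = 0.0760, adjusted p = 0.938 by edgeR). Without replicate 5 of both groups it was 1.18 (unadjusted p = 0.241 by edgeR). Kcnmb4 was at 1.48, 1.17, 0.507, 0.677 and 0.336 CPM per kilobase in control and 1.44, 0.737, 1.30, 1.05 and 3.15 in cdKO samples. Its log2 fold change was 0.88 (0.48) with all samples and 0.23 without replicate 5 of both groups. Kcnma1, the pore gene of the channel that Kcnmb4 joins, was at 0.262, 0.0640, 0.105, 0.199 and 0.0722 in control and 0.398, 0.0597, 0.256, 0.194 and 0.481 in cdKO samples, with 0.98 and, without replicate 5, 0.52.

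Kcnab2 was at 0.467, 0.438, 0.198, 0.359 and 0.0840 CPM per kilobase in control and 1.07, 0.413, 0.608, 0.309 and 0.336 in cdKO samples. Its log2 fold change was 0.82 (standard error 0.49). Kcnip1 was at 1.24, 1.12, 0.272, 0.794 and 0.584 in control and 1.67, 1.18, 1.24, 1.24 and 0.861 in cdKO samples. Of the cdKO samples, 3 lay above the highest control sample and 2 within the control range. Replicates 3 and 4 lay barely above that control sample, at 1.242 and 1.245 against 1.241. Its log2 fold change was 0.63 (0.39) with all samples and also without replicate 5 of both groups, and its exact permutation p of 0.0556 was the smallest of the 60 members. Kcnh7 had a log2 fold change of 1.09 (0.67), and cdKO replicate 5 had 130 of its counts against 18 to 64 in the other cdKO samples. Without replicate 5 of both groups it was 0.03.

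By level class, 87 of the 94 genes were in the same class in control and cdKO samples. Kcnip1 and Kcnmb4 passed from low to expressed, Kcnb2 and Kcnc1 from low to trace, and Kcng2 and Kcnmb1 from trace to low. None of these passed the test above. By family, 6 of the 8 tested Kcnj genes had a log2 fold change above 0 (median 0.22), as did 5 of the 6 tested Kcnk genes (median 0.34) and all 3 tested Kcnmb genes (0.51 to 0.88). Without replicate 5 of both groups these were 6 of 7 Kcnj genes (median 0.14), 4 of 6 Kcnk genes (median 0.09) and all 3 Kcnmb genes (0.12 to 0.25). Kcnj13 no longer passed the filter there: its cdKO replicate 5 was at 0.692 CPM per kilobase against at most 0.0469 in the other cdKO samples. Kcnk2, at 0.628 in cdKO replicate 5 against at most 0.233 in the other cdKO samples, went from a log2 fold change of 0.92 to 0.05. Both Kcnt genes lay below 0 in either fit. The Kcnd genes went from 2 above 0 and 1 below to 0 and 3.

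Of the 60 tested members, 30 (50%) had their lowest control value in control replicate 5, as did 31.3% of all genes tested, and 5 (8.33%) had their highest there, against 35.0%. In cdKO replicate 5, 24 (40%) were lowest and 19 (31.7%) highest of the cdKO samples, against 37.5% and 37.2% of all genes. The part of read position and of the cell mixture in these values was not tested.

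Other genes of potassium transport were taken from 3 lists. Of 18 genes of channel partners, 12 were tested, 5 of them with a log2 fold change above 0 and 7 below, with a median of -0.06. The highest, Cntn2, encodes an adhesion protein that gathers Kcna channels beside nodes of Ranvier, and was at 9.03, 16.1, 7.33, 17.4 and 0.938 CPM per kilobase in control and 15.4, 6.40, 12.1, 8.38 and 5.09 in cdKO samples. The HCN channels, which carry a mixed inward current on hyperpolarisation, were led by Hcn3 (control median 0.633, log2 fold change -0.27, standard error 0.34). All 10 genes of sodium-potassium pumps and chloride cotransporters were tested, 7 of them in the expressed class. The highest was Atp1b3, a pump subunit, at 54.1, 40.1, 56.8, 51.4 and 53.3 in control and 38.5, 44.6, 41.1, 54.2 and 31.7 in cdKO samples. Its control median of 53.3 compares with 8.30 for Kcnh2, and its log2 fold change was -0.28 (0.24). None of the 26 tested genes of these lists was at an unadjusted p under 0.05, and the smallest adjusted p by edgeR was 0.991.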

How the data were processed

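RNA of YFP-sorted cells from 5 control and 5 cdKO samples was sequenced as paired reads. The authors deposited whole-number counts per exon bin for each sample, made with bcl2fastq 2.17, Trimmomatic 0.36, STAR 2.5.2b and Subread 1.5.2 on GRCm38, as their processing notes list. A read was counted on each bin it overlapped and without regard to strand: where an interval was listed once per strand, 16 of 16 times both entries held the same counts. Here, bins were summed per gene over GENCODE M21, and 3988 bins (1.17% of counts) that belonged to several genes with no single protein-coding one were left out. Since a read can count in several bins, a gene's sum exceeds its reads, and per-length levels divide by bin length plus 149 bases per bin. The columns of other samples numbered 0.

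Genes were kept by filterByExpr with a minimum count of 10 and tested with edgeR 4.0.16 (TMM, quasi-likelihood, Benjamini-Hochberg adjustment over 17835 genes) in R 4.3.3, in 1 fit of the 10 samples without covariates. The exact permutation test used the 252 arrangements of the samples, for which 0.00794 is the smallest p. The script was tested on simulated data. Alternatives were other scalings, filters, DESeq2 1.42.0, limma 3.58.1 (voom), a replicate block, bins of a single gene, and leaving out each sample. The fits without replicate 5 of both groups and on 3′ bins only were chosen after seeing the data.

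Levels are given for the 25 highest members, fold changes for the 20 genes known from motor neurons and for members that passed a test, and all others by class, except some genes that are not reported here. Fold changes of Kcne1l, Kcnn1, Kcnk10, Kcnk5, Kcnip3, Kcnab2, Kcnip1, Kcnmb4, Kcnn4 and Kcnh7, levels of trace genes outside these lists, and the start and transcript comparisons were chosen after their values were seen. The members and the lists were chosen with earlier results of these data known. Intervals of shares cover counting error only.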

Additional observations from a re-analysis of the deposited data

Results flagged for a closer look

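In 5 of 64 groups of 5 samples examined, a single sample stood far from the others by Dixon's criterion, which chance meets in about 1 group in 20. All values are per-length levels in CPM per kilobase. In cdKO replicate 5, Kcnd3 was at 0.258 beside 0.0115 to 0.0547 in the rest of its group, and Kcnn2 at 0.550 against 0.124 to 0.226. Both values belong to the library whose counts lay nearest to the 3′ ends, and the part of read position in them was not tested. Kcnip4 was at 0.799 in control replicate 1 against 0.102 to 0.187, Kcnk10 at 4.26 in cdKO replicate 1 against 1.81 to 2.45, and Kcnt2 at 0.0722 in cdKO replicate 4 against 0 to 0.0122.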

How the results depend on the processing

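No Kcn gene and no other gene of potassium transport was called at an adjusted p under 0.05 in any fit. Genes of the whole table called so numbered 1 with library size only, 1 without a filter on low counts, 19 with DESeq2, 3 with limma-voom, 4 without replicate 5 of both groups, 1 on 3′ bins only, and 0 to 4 with 1 sample left out, while 743 genes higher and 145 lower in cdKO samples at an unadjusted p under 0.05 became, for higher, 380 with library size only, 1253 unfiltered, 164 with limma-voom, 160 without replicate 5 of both groups, 468 on 3′ bins and 107 to 1196 with 1 sample left out, and for lower 253, 863, 469 with DESeq2, 272 without replicate 5 of both groups and 83 to 358. At an unadjusted p under 0.05, the Kcn genes were 1 higher (Kcnj3) and 3 lower (Kcnc2, Kcnj16 and Kcnk13) without a filter and 1 lower (Kcnk13) with DESeq2. With 1 sample left out they were 0 to 3 higher (without control replicate 1 Kcna5, Kcnma1 and Kcnmb4, without control replicate 2 or cdKO replicate 1 Kcnn4, without cdKO replicate 2 Kcnma1) and 0 lower. Kcn genes without overlap were 0 to 1 lower (Kcnd1 without control replicate 3) and 0 higher. The expressed class held 11 genes from a level of 0.5, and 5 to 6 with 1 sample left out. Replicate numbers pair the samples only if all same-numbered samples deviate together, and their correlations were 0.065, -0.239, 0.103, 0.290 and 0.254. With the replicate number as a block, 290 genes were higher, 172 lower and 0 called, and of the Kcn genes 1 (Kcna5) was higher at an unadjusted p under 0.05.

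Of 21 genes with fold changes, 11 kept their direction in every one of the 20 other fits that tested them. Kcnh2, at 0.00, was at 0.012 with DESeq2 size factors, 0.0047 with 10 counts required in every sample, 0.0011 with DESeq2, 0.020 with limma-voom, 0.019 with the block and 0.0053 on bins of a single gene. With library size only, Kcne1l was at -0.10, Kcnip3 at -0.0018 and Kcnn1 at -0.013, and on 3′ bins Kcne1l was at -0.091 and Kcnip3 at -0.14. With the block Kcnd2 was at -0.051 and Kcnd3 at -0.33, and Kcnd3 was at -0.15 with limma-voom. Without replicate 5 of both groups Kcnd2 was at -0.40, Kcnd3 at -1.04, Kcne1l at -0.12, Kcnk3 at -0.30 and Kcnn3 at 0.14. With 1 sample left out, the ranges that included both directions were -0.085 to 1.36 for Kcnd2, -0.81 to 0.81 for Kcnd3, -0.11 to 0.20 for Kcne1l, -0.17 to 0.17 for Kcnh2, -0.082 to 0.24 for Kcnip3, -0.080 to 0.89 for Kcnk3, -0.11 to 0.37 for Kcnk5, -0.29 to 0.33 for Kcnn1, -0.61 to 0.095 for Kcnn2 and -0.68 to 0.12 for Kcnn3. The cause was not tested. With standard errors of 0.30 to 1.07, most members could differ by 1 log2 unit or more without being called. Onecut3, at a log2 fold change of -5.08 (standard error 0.76), was itself not called (adjusted p = 0.111 by edgeR). Of the 34 genes that failed the filter, those tested without it rest on few counts.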
